A study of Mus musculus with 8 samples.

Results

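The apolipoprotein genes described here were 10: Apoa1, Apoa2, Apoa4, Apoa5, Apob, Apoc1, Apoc2, Apoc3, Apoe and Apom. They were found by symbol in a table of 16337 genes, and all 10 passed the filter on low values (1 FPKM or more in 2 or more libraries), as did 10082 genes in all. FPKM counts fragments relative to transcript length and to all mapped fragments, so levels of different genes can roughly be set side by side. Libraries can still differ along transcript length, as some did here, which limits this for genes of unlike length. RNA was sequenced from primary hepatocytes, isolated by collagenase digestion of the liver, of male C57BL/6 wild-type mice and of Hamp-/- mice, which lack hepcidin, a hormone of the liver that lowers iron release into blood. Mice were 4 weeks old and received either carbon tetrachloride (CCl4), a solvent that injures hepatocytes, as a 12.5% mixture in olive oil, or olive oil alone, for 24 h. The 4 groups were wild type with oil, wild type with CCl4, Hamp-/- with oil and Hamp-/- with CCl4, with 2 libraries each. The design names 6 mice per group but the labels do not tie the 2 libraries of a group to different mice. The p-values below therefore cover the spread between the 2 libraries of a group, pooled per gene over the 4 groups. That spread may be technical.

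Apolipoproteins are the protein part of the particles that carry triglyceride and cholesterol through blood. Apob is the scaffold of very low density lipoprotein (VLDL), Apoa1 and Apoa2 are the main proteins of high density lipoprotein (HDL), and the small exchangeable members move between particles and set how fast lipoprotein lipase and receptors act on them. The hepatocyte makes and secretes most of them, and several lie in gene clusters. In the RefSeq annotation Apoa1, Apoc3, Apoa4 and Apoa5 are neighbours on chromosome 9, Apoe, Apoc1 and Apoc2 are neighbours on chromosome 7, and Apoa2, Apob and Apom lie outside these clusters, on chromosomes 1, 12 and 17.

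Hamp itself, the targeted gene, ranged from 1136 to 1826 FPKM in the 4 wild-type libraries and from 0.54 to 2.72 FPKM in the 4 Hamp-/- libraries, as the labels say. Between 8867 and 9384 genes reached 1 FPKM in a library. The 10 hepatocyte markers (among them Alb, Ttr and Cps1) were all detected. They summed to 40844.9 to 41211.0 FPKM in wild-type oil and 45392.8 to 45983.2 in wild-type CCl4. In Hamp-/- the sums were 59955.4 to 67223.8 FPKM in oil and 40585.2 to 56383.1 after CCl4. Markers of other liver cells were present at far lower levels and differed between groups. The 12 Kupffer cell and macrophage markers summed to 32.8 to 38.2 FPKM in wild-type oil, 195 to 205 in wild-type CCl4, 324 to 425 in Hamp-/- oil and 546 to 681 in Hamp-/- CCl4. The 10 neutrophil and monocyte markers summed to 14.2 to 18.7 FPKM in the oil groups and 80.3 to 95.5 after CCl4, and the 10 endothelial markers to 9.63 to 14.0 in wild type and 38.4 to 76.8 in Hamp-/-. The 10 stellate, 6 cholangiocyte and 7 detected lymphocyte markers summed to at most 15.7, 43.0 and 3.07 FPKM, and the 5 red blood cell markers to 32.8 to 89.4. No marker in the table was at 0 in all libraries.

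Libraries of the Hamp-/- groups also differed more from each other than those of wild type. The fit pooled the spread of a gene over all groups. Comparisons within wild type thus drew on the spread of the Hamp-/- libraries too, and the reverse. Across tested genes the SD of replicate 2 minus replicate 1 on the log2(FPKM + 1) scale was 0.139 in each wild-type group, 0.364 in Hamp-/- oil and 0.394 in Hamp-/- CCl4, and in both Hamp-/- groups the difference followed transcript length.

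The 10 transcripts held 6.57% to 9.12% of the summed FPKM of a library. Apoe, the ligand through which remnant particles are taken up by the liver, was the most abundant in all 8 libraries, with 13038 to 19254 FPKM, and ranked between 2 and 6 among all genes. These are bulk samples, in which fewer cells of a type and less RNA per cell cannot be told apart. In wild-type oil the order below Apoe was Apoa2 (9782 and 10229 FPKM), Apoa1 (8102 and 8544), Apoc1 (5749 and 5869), Apoc3 (2519 and 2963), Apoa5 (615 and 638), Apob (414 and 397), Apom (334 and 349), Apoa4 (255 and 271) and Apoc2 (85.0 and 91.2). No neighbours in that order overlapped between their 2 libraries. After CCl4 in Hamp-/- the order was different. Apoa1 (8543 and 10323 FPKM) stood above Apoa2 (5820 and 6861), and Apoa4 (3138 and 3775) had passed Apoc3 (2561 and 3122), although Apoa4 in the lower library and Apoc3 in the higher one were close. Apom (420 and 521 FPKM) overlapped with Apoa5 (437 and 523), and Apob (173 and 83.9) was the lowest of the 10.

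**Figure D1:**
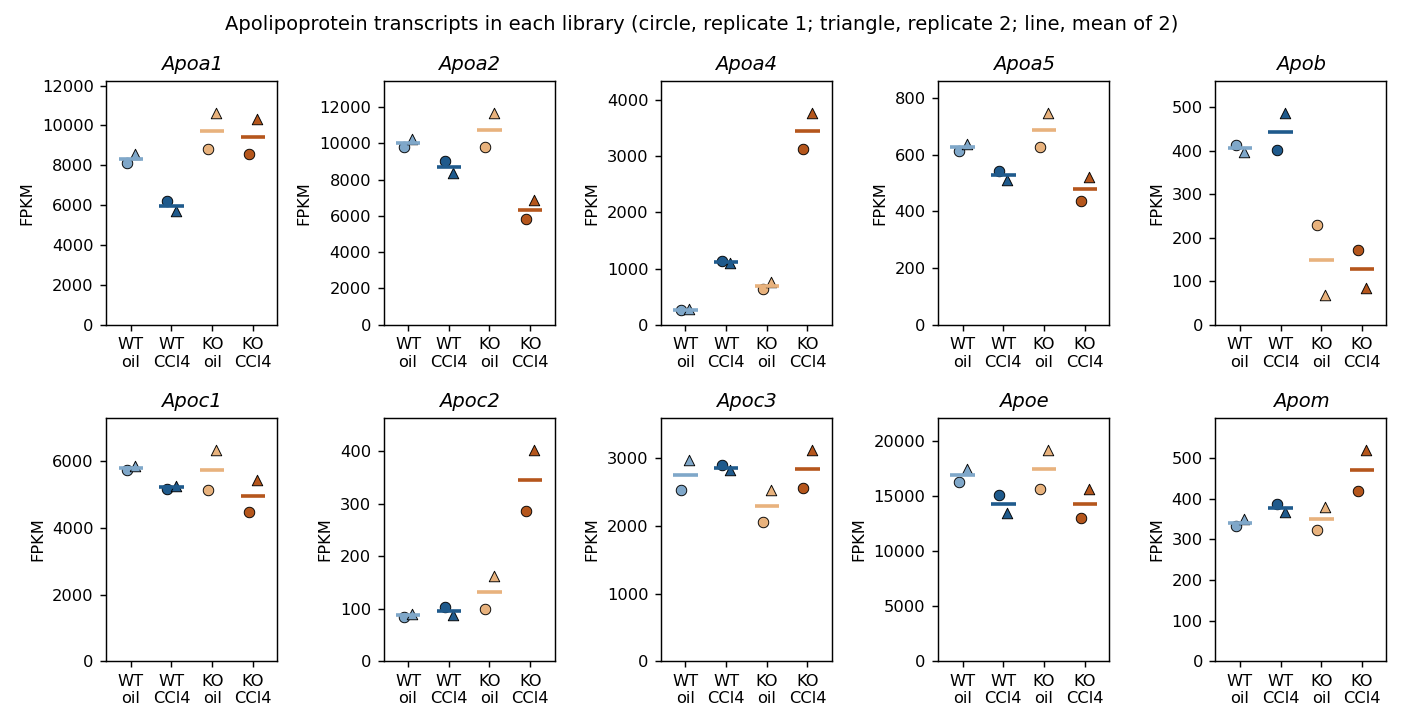
Each panel gives 1 gene, with FPKM on a linear axis from 0 and the 4 groups along the x axis (WT, wild type; KO, Hamp-/-). Points are single libraries and lines are means of 2; Apoa4 climbs from 255 FPKM in wild-type oil to 3775 in Hamp-/- CCl4, Apob is lower in all 4 Hamp-/- libraries, and Apoc1, Apoc3 and Apoe overlap across most groups.

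The main difference between groups lay in Apoa4, which encodes a protein of chylomicrons and HDL made by the intestine and, in the mouse, by the liver. Its level was 254.73 and 271.16 FPKM in wild-type oil, 1134 and 1095 in wild-type CCl4, 638 and 754 in Hamp-/- oil, and 3138 and 3775 in Hamp-/- CCl4. The 4 groups did not overlap, and the 2 libraries of a group lay close together beside the distance between groups. Apoc2, the cofactor that lipoprotein lipase needs, was at 85.0 and 91.2 FPKM in wild-type oil, 104 and 87.8 in wild-type CCl4, 99.99 and 163 in Hamp-/- oil, and 287 and 404 in Hamp-/- CCl4. Here the wild-type groups overlapped with each other and the Hamp-/- CCl4 libraries stood above all others. Apob gave 414 and 397 FPKM in wild-type oil, 401 and 487 in wild-type CCl4, 230 and 67.2 in Hamp-/- oil, and 173 and 83.9 in Hamp-/- CCl4. All 4 Hamp-/- libraries were below all 4 wild-type libraries, and the 2 Hamp-/- groups overlapped.

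Promoter sequence is shown for the 3 members whose group means ranged most widely (Apoa4, Apoc2 and Apob) and for Apoa1 and Apoa2, which differed between genotypes after CCl4 in opposite directions. RefSeq sequences were at hand for 8 of the 10 members, in the GRCm38.p6 build, and each line gives the 250 bases before an annotated start, 5′ to 3′ on the gene's strand. The Apoa4 window is chr9:46240594-46240843 on the plus strand and the Apoa1 window chr9:46228380-46228629 on the plus strand, so both lie in the chromosome 9 cluster. The Apoc2 window is chr7:19677942-19678191 on the minus strand, the Apob window chr12:7977427-7977676 on the plus strand and the Apoa2 window chr1:171224804-171225053 on the plus strand, the first of its 2 annotated starts. Capitals mark matches, on either strand, to 7 motifs: the TATA box TATAAA, the CCAAT box, the HNF4 site core CAAAGTCCA, the nuclear receptor hexamer AGGTCA, the C/EBP site core TTGCNNAA, the HNF1 hexamer GTTAAT and the sterol regulatory element core TCACNCCAC.
Apoa4: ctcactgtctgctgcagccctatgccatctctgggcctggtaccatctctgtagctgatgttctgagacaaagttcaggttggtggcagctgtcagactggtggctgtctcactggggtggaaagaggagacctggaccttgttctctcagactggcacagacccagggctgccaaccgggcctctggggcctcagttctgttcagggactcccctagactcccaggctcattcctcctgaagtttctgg
Apoa1: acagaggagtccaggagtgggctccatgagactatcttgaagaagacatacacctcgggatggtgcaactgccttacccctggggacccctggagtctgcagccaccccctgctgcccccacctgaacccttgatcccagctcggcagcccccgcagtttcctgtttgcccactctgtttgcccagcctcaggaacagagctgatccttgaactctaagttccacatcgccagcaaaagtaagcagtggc
Apoc2: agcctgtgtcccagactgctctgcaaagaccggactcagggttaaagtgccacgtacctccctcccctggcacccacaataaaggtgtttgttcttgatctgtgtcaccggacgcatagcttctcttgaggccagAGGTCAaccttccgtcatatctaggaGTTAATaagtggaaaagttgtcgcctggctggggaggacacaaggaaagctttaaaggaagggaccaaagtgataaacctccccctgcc
Apob: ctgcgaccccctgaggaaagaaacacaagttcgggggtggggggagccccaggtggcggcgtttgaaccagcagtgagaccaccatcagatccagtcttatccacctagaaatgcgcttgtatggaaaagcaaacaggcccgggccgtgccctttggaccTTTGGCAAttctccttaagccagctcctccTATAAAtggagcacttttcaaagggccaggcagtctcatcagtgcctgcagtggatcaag
Apoa2: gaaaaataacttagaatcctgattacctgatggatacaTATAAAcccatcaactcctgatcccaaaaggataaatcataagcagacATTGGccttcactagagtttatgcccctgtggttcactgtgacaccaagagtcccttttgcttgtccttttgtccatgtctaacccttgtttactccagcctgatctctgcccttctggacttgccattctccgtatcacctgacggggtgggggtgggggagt

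The windows of Apoa4 and Apoa1 held none of these 7 motifs. In Apoc2, AGGTCA began at position -115 from the start and GTTAAT at -89, and these occur in 14.0% and 6.43% of the 32851 RefSeq promoters of the same length. In Apob, TATAAA began at -60 and a reverse match of TTGCNNAA at -90, which occur in 12.4% and 9.56% of promoters. The Apoa2 window held TATAAA at -212 and a reverse CCAAT at -164, the latter a motif of 33.8% of promoters. The HNF4 core (0.384% of promoters) and the sterol element core (1.05%) were in none of the 12 windows of the 8 members. A match is a match of letters and not a shown site, and its absence says only that those letters are not in that window.

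CCl4 in wild type raised 1 of the 10 transcripts, Apoa4 (limma on log2(FPKM + 1), Benjamini-Hochberg over all tested genes, FDR 0.05). Among all tested genes 10.2% were called higher and 5.61% lower. Mean Apoa4 rose 4.24-fold, from 263 ± 11.6 to 1114.9 ± 27.5 FPKM (SD, n = 2 libraries), a log2 difference of 2.08 ± 0.12 (SE; limma adjusted p = 0.000139). Apoa1 had a log2 difference of -0.48 ± 0.13 and missed the threshold with a limma adjusted p of 0.0553, at 8102 and 8544 FPKM in oil and 6217 and 5703 after CCl4. The groups of Apoa1 did not overlap, and its 95% interval ran from -0.80 to -0.16. Apoa1 was called with the 4 wild-type libraries compared alone (limma adjusted p = 0.000127) and with library weights (0.00149). It was not called with quantile normalization (0.0992) or equal library medians (0.0973). Its adjusted p lay between 0.0342 and 0.036 when any single Hamp-/- library was left out and between 0.172 and 0.29 when any single wild-type library was. Where a library is left out, here and below, its group has 1 library, which is assumed to vary like the other groups. The other 8 transcripts had differences between -0.25 (Apoa5) and 0.14 (Apom). The median over the 10 was -0.04 against 0.04 over all tested genes. With the 4 wild-type libraries alone, 2 of the 10 were called higher and 5 lower, beside 2619 and 1561 of 10082 genes.

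CCl4 in Hamp-/- raised 3 of the 10, Apoa4, Apoc2 and Apom, and lowered 2, Apoa2 and Apoa5, where 27.9% of all tested genes were called higher and 27.4% lower. Apoa4 rose 4.97-fold, from 696 ± 82.0 to 3456.7 ± 450.0 FPKM, with a log2 difference of 2.31 ± 0.12 (limma adjusted p = 1.27e-05). Apoc2 rose 2.62-fold, from 132 ± 44.9 to 346 ± 82.3 FPKM, with a log2 difference of 1.41 ± 0.25 (limma adjusted p = 0.00334). Apoa2, the second protein of HDL, was at 9832 and 11690 FPKM in oil and 5820 and 6861 after CCl4. Its groups were apart, with a log2 difference of -0.76 ± 0.12 (limma adjusted p = 0.00199). Apoa5, which promotes clearance of triglyceride-rich particles, was at 627 and 748 FPKM in oil and 437 and 523 after CCl4, again without overlap, with a log2 difference of -0.52 ± 0.12 (limma adjusted p = 0.00979).

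Apom, the HDL protein that carries sphingosine-1-phosphate, was at 323 and 379 FPKM in Hamp-/- oil and 420 and 521 after CCl4. Its log2 difference of 0.42 ± 0.12 passed with a limma adjusted p of 0.027. It was lost when the 4 Hamp-/- libraries were compared alone (adjusted p = 0.115) and with equal library medians (0.45, adjusted p = 0.0518). It also ended when Hamp-/- oil replicate 1 (0.30, adjusted p = 0.12) or Hamp-/- CCl4 replicate 2 (0.26, adjusted p = 0.102) was left out, and when any single wild-type library was left out (0.42, adjusted p between 0.0521 and 0.0535). The Apoa5 call was likewise lost with the 4 Hamp-/- libraries alone, with an adjusted p of 0.0644. Apob had a difference of -0.05 ± 0.57, Apoa1 of -0.04 ± 0.13, Apoc1 of -0.21 ± 0.13, Apoe of -0.28 ± 0.14 and Apoc3, an inhibitor of lipolysis and remnant uptake, of 0.31 ± 0.14, none of which passed. With a block for replicate number in the Hamp-/- libraries alone, added after seeing the data, Apoc1, Apoe and Apoc3 were called. Their limma adjusted p were 0.000285, 0.000871 and 0.00129, and 7409 of 10082 genes were called there. With a block over all libraries Apoc3 passed (0.0414), and Apoc1 (0.122) and Apoe (0.103) did not. The median over the 10 was -0.04, against -0.03 over all tested genes.

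**Figure D2:**
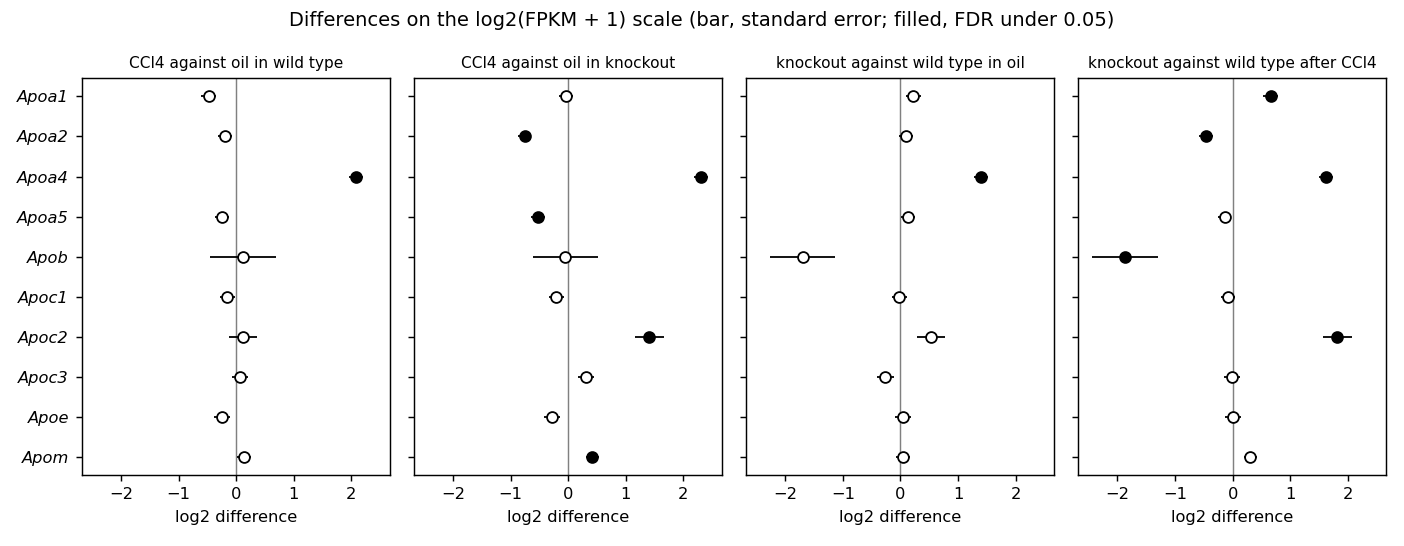
Log2 differences on the log2(FPKM + 1) scale for the 10 genes in 4 comparisons, with bars of 1 standard error and filled points where the adjusted p was under 0.05. Apoa4 is to the right of 0 in all 4 panels, between 1.40 and 2.31, Apob lies near -1.70 and -1.87 with wide bars between genotypes, and most other points lie near 0.

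In oil the Hamp-/- libraries differed from wild type in 1 called transcript, again Apoa4, with 22.4% of tested genes called higher and 11.0% lower. Apoa4 was 2.65-fold higher in Hamp-/- oil, a log2 difference of 1.40 ± 0.12 (limma adjusted p = 0.000344). Apob, the scaffold of VLDL, was 2.73-fold lower by its means, 406 ± 11.7 against 149 ± 115 FPKM. Its log2 difference of -1.70 ± 0.57 missed the threshold (limma adjusted p = 0.0618; 95% interval -3.06 to -0.33). Leaving out Hamp-/- oil replicate 1 gave -2.58 (limma adjusted p = 0.00559) and leaving out replicate 2 gave -0.81 (0.183), each from a lone Hamp-/- oil library. With any single library of the other groups left out, the Apob difference lay between -1.72 and -1.67. Apoc2 had a difference of 0.53 ± 0.25 and Apoc3 of -0.26 ± 0.14, and neither passed (limma adjusted p of 0.155 and 0.212). The remaining 6 lay between -0.02 and 0.22, and the median over the 10 was 0.07 against 0.05 over all tested genes.

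After CCl4 the genotypes differed in 5 of the 10. Apoa4, Apoc2 and Apoa1 were higher in Hamp-/- and Apob and Apoa2 lower, where 29.6% of tested genes were called higher and 27.5% lower. Apoa4 was 3.1-fold higher (log2 difference 1.63 ± 0.12, limma adjusted p = 7.19e-05) and Apoc2 3.59-fold higher (1.82 ± 0.25, limma adjusted p = 0.00116). Apoa1, the main HDL protein, was at 6217 and 5703 FPKM in wild-type CCl4 and 8543 and 10323 in Hamp-/- CCl4. The groups did not overlap, and the log2 difference was 0.66 ± 0.13 (limma adjusted p = 0.00572). Apoa2 went the other way, from 9027 and 8382 FPKM in wild type to 5820 and 6861 in Hamp-/-, with a log2 difference of -0.46 ± 0.12 (limma adjusted p = 0.0172).

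Apob was 3.46-fold lower in Hamp-/- CCl4 than in wild-type CCl4 by its means, 444 ± 61.1 against 128 ± 62.8 FPKM, and the log2 difference was -1.87 ± 0.57 (limma adjusted p = 0.0292). The Apob call ended when any wild-type library (adjusted p from 0.0533 to 0.127) or Hamp-/- CCl4 replicate 2 (-1.35, adjusted p = 0.133) was left out. The Apoa2 call ended without either wild-type CCl4 library (adjusted p of 0.105 and 0.0589) or without Hamp-/- CCl4 replicate 1 (-0.34, adjusted p = 0.0613). Apom at 0.31 ± 0.12 missed the threshold (limma adjusted p = 0.0703). In the main fit Apoa5, Apoc1, Apoc3 and Apoe had 95% intervals of -0.43 to 0.14, -0.40 to 0.23, -0.36 to 0.33 and -0.34 to 0.33. Differences of that size in either direction are thus not excluded by the spread. These comparisons share groups, since each group of libraries enters 2 of them.

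The response to CCl4 itself differed between genotypes for 2 members by the interaction term, with 14.3% of tested genes called higher and 19.0% lower. Apoc2 changed by 0.12 ± 0.25 in wild type and 1.41 ± 0.25 in Hamp-/-, a difference of 1.29 ± 0.36 (limma adjusted p = 0.034). Apoa2 changed by -0.20 ± 0.12 and -0.76 ± 0.12, a difference of -0.56 ± 0.17 (limma adjusted p = 0.047). For Apoa4 the responses of 2.08 and 2.31 differed by 0.23 ± 0.17 (limma adjusted p = 0.339; 95% interval -0.17 to 0.63). Apoa1, at -0.48 in wild type and -0.04 in Hamp-/-, gave 0.44 ± 0.19 and did not pass (limma adjusted p = 0.119). With no filter on low values neither Apoc2 (limma adjusted p = 0.0633) nor Apoa2 (0.135) was called. Apoa2 was also not called with equal library medians (-0.48, limma adjusted p = 0.157) or a pseudocount of 0.1 (0.0517). The Apoc2 and Apoa2 interactions lost their calls when any wild-type library was left out (adjusted p of 0.0729 to 0.119 and of 0.108 to 0.157). They were also lost without Hamp-/- CCl4 replicate 2 for Apoc2 (1.04, adjusted p = 0.0764), and for Apoa2 without Hamp-/- oil replicate 2 or Hamp-/- CCl4 replicate 1 (-0.44 each, adjusted p of 0.0874 and 0.0841).

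Ratios of 2 members within a library carry no factor of library scale, though a shift tied to transcript length can remain. Apoa4 was 3.14% and 3.17% of Apoa1 in wild-type oil, 18.2% and 19.2% in wild-type CCl4, 7.25% and 7.09% in Hamp-/- oil, and 36.7% and 36.6% in Hamp-/- CCl4. Replicates of a group thus lay within 1 percentage point of each other, and the groups stood apart. The ratio of Apoa2 to Apoa1 was 121% and 120%, then 145% and 147%, then 112% and 110%, and finally 68.1% and 66.5%, in the same order of groups. It was above 100% in all libraries except those of Hamp-/- CCl4. Apoc2 was 1.48% and 1.55% of Apoc1 in wild-type oil, 2.02% and 1.67% in wild-type CCl4, 1.94% and 2.57% in Hamp-/- oil, and 6.43% and 7.43% in Hamp-/- CCl4. Apoc1, a small protein of VLDL and HDL whose gene lies next to Apoe, stayed at 32.8% to 38.9% of Apoe in all 8 libraries. A ratio shows unequal change and not which of its genes moved.

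**Figure D3:**
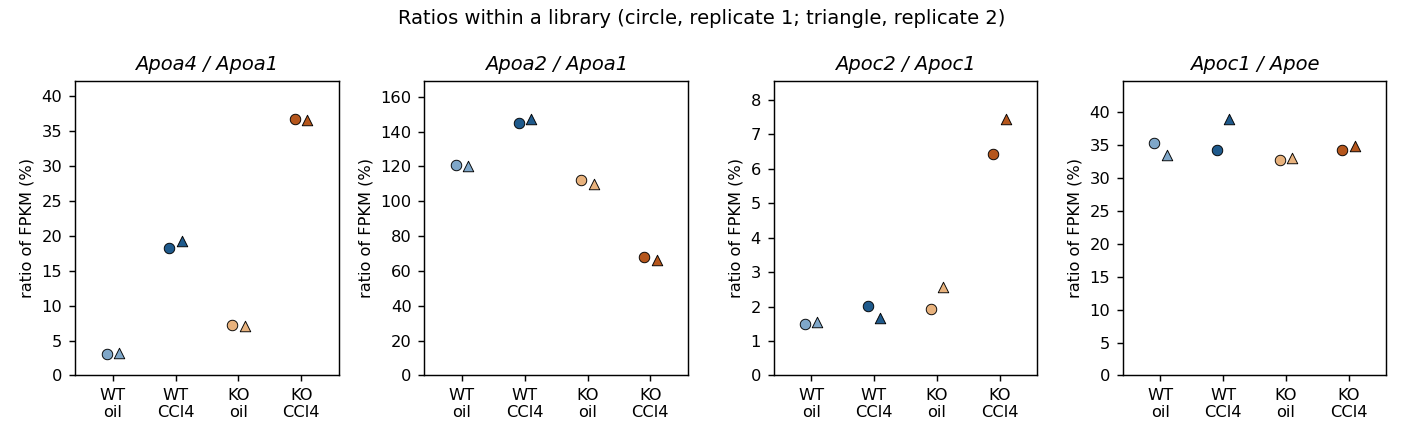
Ratios of FPKM within each library in percent (linear axis from 0), by group (WT, wild type; KO, Hamp-/-), with circles for replicate 1 and triangles for replicate 2. Apoa4 / Apoa1 runs from 3.14% to 36.7%, Apoa2 / Apoa1 falls to 66.5% in Hamp-/- CCl4, Apoc2 / Apoc1 reaches 7.43% there, and Apoc1 / Apoe stays between 32.8% and 38.9%.

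Neighbours in a cluster varied by different amounts. On chromosome 9, Apoa4 had a range of 3.71 log2 units over its 4 group means, Apoa1 of 0.70, Apoa5 of 0.52 and Apoc3 of 0.32. On chromosome 7 Apoc2 ranged over 1.94 log2 units, Apoe over 0.28 and Apoc1 over 0.24. By the root-mean-square difference between centred group means, the pair most alike among the 10 was Apoc1 and Apoe, at 0.05 log2 units over 4 groups, followed by Apoa5 and Apoe at 0.08. Apoc2 is uncertain as a single gene. The table also holds the readthrough transcript Apoc4-apoc2, which shares sequence with it, at 275 and 274 FPKM in wild-type oil, 348 and 299 in wild-type CCl4, 388 and 458 in Hamp-/- oil, and 716 and 827 in Hamp-/- CCl4. The readthrough rose after CCl4 in Hamp-/- (0.87 ± 0.12, limma adjusted p = 0.00103), and Apoc4 alone had a difference of 0.07 ± 0.15 there (limma adjusted p = 0.73). How reads were divided between these rows is not stated. Apoa2 overlaps Tomm40l in the annotation, which was at 7.11 to 35.1 FPKM against at least 5820 for Apoa2.

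Transcript length and the Hamp-/- replicates bear on Apob most of all. Its transcript of 13934 bases is the longest of the 10, the others spanning 518 to 2515 bases. Replicate 2 minus replicate 1 on the log2 scale was -1.76 for Apob in Hamp-/- oil and -1.03 in Hamp-/- CCl4, and between 0.23 and 0.70 for the other 9 members in those groups. Over all tested genes the median of that difference went from 0.23 in the 607 genes under 1000 bases to -0.33 in the 452 genes of 8000 bases or more in Hamp-/- oil, and from 0.20 to -0.32 in Hamp-/- CCl4. In wild type the same medians lay between -0.07 and 0.05. Of the 452 long genes, 17 (3.76%) were at least 2-fold lower in replicate 2 in both Hamp-/- groups, Apob among them. The same held for 199 of the 10082 tested genes of any length. In Hamp-/- oil Apob had the lowest value of the 452. In Hamp-/- CCl4, 26 of the 452, Apob included, were at or below its value.

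Between genotypes the long genes had a median log2 difference of 0.02 in oil and -0.30 after CCl4, against -1.70 and -1.87 for Apob. With the length trend removed, an alternative chosen after seeing the data, the Apob difference in oil was -1.71 (limma adjusted p = 0.013). After CCl4 it was then -1.61 (limma adjusted p = 0.00939). Without replicate 2 of both Hamp-/- groups the Apob difference was -0.81 in oil and -1.35 after CCl4, values given without a p since 1 library was left in each Hamp-/- group. After CCl4 the genes under 1000 bases, the class of Apoa2, Apoc1, Apoc2 and Apoc3, had a median of 0.28 between genotypes. With the length trend removed, Apoc1 in that comparison went from -0.08 to -0.49 (limma adjusted p = 0.000235). Apoc3 went from -0.01 to -0.31 (limma adjusted p = 0.00663). Both were then called lower, and 7 members were called in all, 3 higher and 4 lower.

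**Figure D4:**
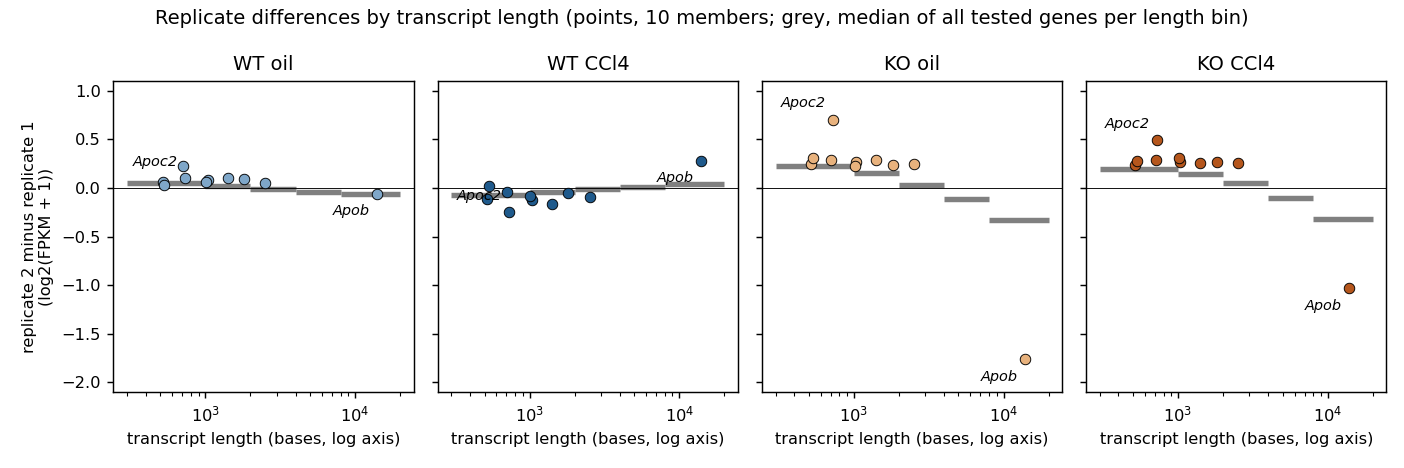
Replicate 2 minus replicate 1 on the log2(FPKM + 1) scale against transcript length (log axis), with a panel per group (WT, wild type; KO, Hamp-/-). Points are the 10 genes and grey lines the medians of all tested genes in 5 length bins; in the Hamp-/- panels the lines fall from 0.23 and 0.20 to -0.33 and -0.32, and Apob lies at -1.76 and -1.03.

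The markers of other cells differed between groups as well. The summed macrophage markers increased in the order wild-type oil, wild-type CCl4, Hamp-/- oil, Hamp-/- CCl4, while Apoa4 followed the order wild-type oil, Hamp-/- oil, wild-type CCl4, Hamp-/- CCl4. Of the 12 macrophage markers, 9 were called higher after CCl4 in wild type, and 4 higher and 3 lower after CCl4 in Hamp-/-. Between genotypes 12 were higher in Hamp-/- in oil and 11 after CCl4. Among all tested genes 10.2%, 27.9%, 22.4% and 29.6% were called higher in these comparisons, and 27.4% lower after CCl4 in Hamp-/-. Apoe is also made by macrophages, and was at 16303 and 17512 FPKM in wild-type oil, 15138 and 13518 in wild-type CCl4, 15695 and 19254 in Hamp-/- oil, and 13038 and 15629 in Hamp-/- CCl4. No comparison called Apoe in the main fit, with differences from -0.28 to 0.04. With quantile normalization Apoe was called lower after CCl4 in wild type (-0.20, limma adjusted p = 0.00451) and in Hamp-/- (-0.45, 1.69e-05). It was then called higher in Hamp-/- in oil (0.45, 5.55e-05) and after CCl4 (0.20, 0.001). With equal library medians it was not called after CCl4 in Hamp-/- (-0.25, limma adjusted p = 0.27). The hepatocyte markers were called lower in 9 of 10 after CCl4 in Hamp-/- and in 7 of 10 between genotypes after CCl4. The shares of all tested genes called lower there were 27.4% and 27.5%. After CCl4 in wild type 2 hepatocyte markers were called lower, beside 5.61% of all tested genes. In oil 4 were called higher and 1 lower in Hamp-/-, beside 22.4% and 11.0% of all tested genes. The part of other cells in the Apoa4, Apoc2 and Apoe values was not tested.

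The genes with group means most like those of Apoa4 over the 4 groups were Plac8, Slfn2 and Sh3bgrl3, at root-mean-square differences of 0.103, 0.165 and 0.174 log2 units. Likeness was taken on the log2(FPKM + 1) scale, which understates the change of low genes. Slfn2 was at 0.15 and 0.17 FPKM in wild-type oil and 10.4 and 13.2 in Hamp-/- CCl4. Plac8 was at 1.25 and 1.67 FPKM in wild-type oil, 8.93 and 10.1 in wild-type CCl4, 4.56 and 5.56 in Hamp-/- oil and 23.3 and 29.1 in Hamp-/- CCl4, far below the level of Apoa4. For Apoc2 the nearest were Gde1, St5 and Cxcl13, at 0.065, 0.069 and 0.07. Gde1 was at 50.7 and 48.2, 58.4 and 56.9, 63.3 and 73.1, and 176 and 201 FPKM in the same order. Cxcl13 was a low gene, at 0 and 0.15 FPKM in wild-type oil and 3.68 and 2.10 in Hamp-/- CCl4. For Apob the nearest was Ranbp2, a nuclear pore protein gene, at 0.036, with a transcript of 9608 bases. Ranbp2 was at 6.14 and 5.64, 6.39 and 7.36, 2.42 and 0.38, and 1.84 and 0.70 FPKM, so it too was lower in replicate 2 of both Hamp-/- groups. F830016B08Rik and Gm14325 followed at 0.072 and 0.075, with transcripts of 3297 and 1576 bases. Gm14325 was also lower in replicate 2, at 1.17 and 0.46 FPKM in Hamp-/- oil and 0.77 and 0.35 in Hamp-/- CCl4. F830016B08Rik was at 0.56 and 0.18 FPKM in Hamp-/- oil and 0.26 and 0.30 in Hamp-/- CCl4. The Hamp-/- values of Ranbp2 and these genes were thus low, at most 2.42 FPKM.

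Of 14 other HDL and lipoprotein protein genes tested, 1 rose and 1 fell after CCl4 in wild type, 3 rose and 7 fell after CCl4 in Hamp-/-, 1 was higher and 7 lower in Hamp-/- in oil, and 1 was higher and 10 lower after CCl4. Of all tested genes, 10.2% rose and 5.61% fell after CCl4 in wild type, and 27.9% rose and 27.4% fell in Hamp-/-. Between genotypes 22.4% were higher and 11.0% lower in oil, and 29.6% higher and 27.5% lower after CCl4. The median of the list between genotypes after CCl4 was -1.01 against -0.02 over all tested genes. Pon1, the HDL-borne paraoxonase, was at 334 and 327 FPKM in wild-type oil, 398 and 397 in wild-type CCl4, 302 and 287 in Hamp-/- oil, and 69.1 and 63.6 in Hamp-/- CCl4 (genotype difference after CCl4 -2.57, limma adjusted p = 1.89e-06). Saa4, a constitutive serum amyloid A of HDL, fell to 19.5 and 21.8 FPKM in Hamp-/- CCl4 from 139 and 137 in Hamp-/- oil (-2.69, limma adjusted p = 1.25e-06). Saa1 and Saa2, acute-phase proteins of HDL, are near-identical copies whose reads may be divided uncertainly. Saa2 was at 22918 and 24091 FPKM in wild-type oil and 224 and 225 in Hamp-/- oil, and at 6882 and 8067 in Hamp-/- CCl4 (CCl4 difference in Hamp-/- 5.05, limma adjusted p = 6.88e-07).

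Among 18 genes of lipoprotein assembly and secretion, 5 rose and 2 fell after CCl4 in wild type and 6 rose and 6 fell in Hamp-/-. Between genotypes 3 were higher and 1 lower in Hamp-/- in oil, and 5 were higher and 7 lower after CCl4. The shares of all tested genes, in the same order, were 10.2% and 5.61%, 27.9% and 27.4%, 22.4% and 11.0%, and 29.6% and 27.5%. Mttp, which loads lipid onto the Apob protein, was at 73.8 and 72.9 FPKM in wild-type oil, 85.1 and 91.2 in wild-type CCl4, 102 and 97.8 in Hamp-/- oil, and 161 and 158 in Hamp-/- CCl4. It was called higher in Hamp-/- in oil (0.44, limma adjusted p = 0.00351) and after CCl4 (0.85, limma adjusted p = 0.000102), the opposite direction to Apob. P4hb, the other subunit of the Mttp complex, was lower in Hamp-/- in both settings (-0.54 and -0.63, limma adjusted p of 0.00381 and 0.00102). Cideb, which takes part in lipidation of VLDL, was at 180 and 178 FPKM in wild-type CCl4 and 104 and 122 in Hamp-/- CCl4 (-0.66, limma adjusted p = 0.00177).

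Of 12 genes of triglyceride lipolysis, 2 rose and 1 fell after CCl4 in wild type, 3 rose and 3 fell in Hamp-/-, 5 were higher and 2 lower in Hamp-/- in oil, and 5 were higher and 3 lower after CCl4. All tested genes gave shares of 10.2% and 5.61%, 27.9% and 27.4%, 22.4% and 11.0%, and 29.6% and 27.5% in that order. A pair of secreted inhibitors of lipoprotein lipase moved in opposite directions. Angptl4 was higher in Hamp-/-, at 97.6 and 109 FPKM in oil against 17.3 and 17.2 in wild type (2.51, limma adjusted p = 1.94e-05). Angptl8 was lower, at 5.75 and 8.86 FPKM against 125 and 133 (-4.0, limma adjusted p = 2.96e-05). Creb3l3, a liver transcription factor on the lists of lipolysis and of regulators, rose after CCl4 in Hamp-/- from 137 and 154 to 243 and 288 FPKM (0.86, limma adjusted p = 0.00047). In wild type it was at 146 and 149 FPKM in oil and 123 in both CCl4 libraries, and the interaction was 1.12 (limma adjusted p = 0.00158).

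Of 16 lipoprotein receptor and efflux genes, 3 rose and 2 fell after CCl4 in wild type, 3 rose and 7 fell in Hamp-/-, 5 were higher and 1 lower in Hamp-/- in oil, and 7 were higher and 5 lower after CCl4. Over all tested genes the shares in that order were 10.2% and 5.61%, 27.9% and 27.4%, 22.4% and 11.0%, and 29.6% and 27.5%. Lrp1, a remnant receptor, was at 22.95 and 29.9 FPKM in Hamp-/- CCl4 and 56.2 to 65.7 in the other 3 groups (interaction -1.30, limma adjusted p = 0.00194). Scarb1, the HDL receptor, was at 48.8 and 55.3 FPKM there and 72.5 to 87.0 in the other 3 (interaction -0.69, limma adjusted p = 0.00662). The largest genotype differences named on this list were in Stab1 and Stab2, scavenger receptors of sinusoidal endothelium, of which Stab2 is itself among the endothelial markers given above. The part of endothelial cells in these 2 values was not tested.

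Regulators of apolipoprotein transcription included many lower values in Hamp-/- CCl4. Of 25 tested, 1 rose and 2 fell after CCl4 in wild type, 5 rose and 15 fell in Hamp-/-, 5 were higher and 6 lower in Hamp-/- in oil, and 6 were higher and 14 lower after CCl4. Shares of all tested genes in the same order were 10.2% and 5.61%, 27.9% and 27.4%, 22.4% and 11.0%, and 29.6% and 27.5%. Hnf4a, a master regulator of hepatocyte genes, was at 75.0 and 81.1 FPKM in Hamp-/- CCl4 against 147 and 150 in Hamp-/- oil and 109 to 128 in wild type (interaction -1.12, limma adjusted p = 0.000335). Nr1h4, the bile acid receptor FXR, was at 20.9 and 19.9 FPKM there against 46.7 and 47.2 in Hamp-/- oil (-1.16, limma adjusted p = 1.77e-05). Nr0b2, its target SHP, fell from 28.9 and 32.6 to 7.11 and 7.71 FPKM (-1.92, limma adjusted p = 2.44e-05). Srebf1, the regulator of fatty acid synthesis genes, was at 26.8 and 30.9 FPKM in Hamp-/- CCl4 against 143 and 134 in wild-type CCl4 (-2.22, limma adjusted p = 5.83e-06).

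As secreted hepatocyte products outside lipid transport, 20 plasma protein genes were set beside the members. After CCl4, 1 rose in wild type, and 9 rose and 4 fell in Hamp-/-. Between genotypes 3 were higher and 8 lower in Hamp-/- in oil, and 5 were higher and 6 lower after CCl4. Among all tested genes the shares higher and lower were 10.2% and 5.61%, 27.9% and 27.4%, 22.4% and 11.0%, and 29.6% and 27.5%. Hp, the haemoglobin-binding haptoglobin, was at 15184 and 16137 FPKM in wild-type oil, 2654 and 3064 in Hamp-/- oil, and 8282 and 9640 in Hamp-/- CCl4 (CCl4 difference in Hamp-/- 1.65, limma adjusted p = 3.99e-05). Ahsg, the carrier fetuin-A, reached 17655 and 19181 FPKM in Hamp-/- CCl4 against 9690 and 9786 in wild-type CCl4 (0.92, limma adjusted p = 0.000289). Rbp4, the retinol carrier, was lower in that comparison, as was Apoa2, at 2083 and 2422 against 3721 and 3598 FPKM (-0.70, limma adjusted p = 0.00232).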

How the data were processed

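Hepatocyte RNA was sequenced in 8 libraries of 4 groups after a standard Illumina library protocol, per the labels' protocols. The values analysed are the authors' FPKM, deposited per gene and library with 2 decimals, per the file headers. They are relative, so a gene that takes more reads lowers all others in its library. The submitters' processing notes name the build mm8, while aligner, annotation and read numbers were not given in the sources used here. Without the authors' transcript lengths whole reads could not be recovered, so depth is unknown. Precision comes from the spread between the 2 libraries of a group, pooled over the 4 groups.

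Of 16338 rows, 1 without a gene name (at most 0.0002% of a library's summed FPKM) was dropped. Columns were matched to libraries by name, and groups taken from the titles. A model of the 4 group means was fitted to log2(FPKM + 1) of the 10082 genes that reached 1 FPKM in 2 libraries, which left out 6255. This used limma 3.58.1 in R 4.3.3 with a trended prior (4 residual and 2.61 prior degrees of freedom), and was tested on simulated data. The 5 contrasts were two-sided, with Benjamini-Hochberg adjustment over all tested genes at an FDR of 0.05. Differences on the log2(FPKM + 1) scale understate the change of low genes.

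The 10 members and the lists of genes and markers were chosen with earlier results of these data known. Named genes are the members, Hamp, some of the 3 genes per list and contrast whose adjusted p was lowest, and the 3 genes most like each of the 3 members with the widest range of group means. A gene of the receptor list is not reported here. Apoc4, Apoc4-apoc2 and Tomm40l were named for sequence they share with members or overlap. Transcript lengths are those of GENCODE M21 (99.61% of tested genes). Names, neighbours and promoters are those of RefSeq for GRCm38.p6, another build than the one named for the table. Alternatives were other scalings, no minimum value, a pseudocount of 0.1, an FDR of 0.01, library weights, a replicate block, the 4 libraries compared alone, and leaving out libraries. Removing the length trend, blocking in the knockout alone and a crossed block were added after seeing the data. Plots were made with matplotlib 3.10.9 (Python 3.11.15).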

Additional observations from a re-analysis of the deposited data

Results flagged for a closer look

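The response to CCl4 differed between genotypes, by the interaction term, for 2 of the 10 transcripts. Of all tested genes 14.3% were called higher and 19.0% lower by that term. For Apoc2 the difference between the responses was 1.29 on the log2 scale (limma adjusted p = 0.034), with a response of 0.12 in wild type and 1.41 in Hamp-/-. For Apoa2 it was -0.56 (limma adjusted p = 0.047), with responses of -0.20 and -0.76. Both lost the call with no filter on low values and when any wild-type library was left out. Apoa2 also lost it with equal library medians and with a pseudocount of 0.1. With 2 libraries a group, no group was large enough to look for a single library standing apart.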

How the results depend on the processing

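Of 1050 repeats of a member's comparison under 22 alternatives, 855 kept direction and side of the threshold, 40 lost the call, 107 gained one and 48 changed sign. Apoa4 in the 4 comparisons between 2 groups, Apoa2 and Apoc2 for CCl4 in knockout, and Apoa1 and Apoc2 between genotypes after CCl4 kept their calls under all alternatives run. Depth is unknown, so what it limits cannot be stated. The causes of changes were not tested.

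The number of members called moved as follows. For CCl4 in wild type it was 2 with quantile normalization, with equal totals and with equal sums without the members, 5 with library weights, 4 without the length trend, and 7 with the 4 libraries alone, without both second knockout libraries and with a block fitted in knockout libraries alone. For CCl4 in knockout it was 8 with quantile normalization, without the length trend and with the block in the knockout alone, 3 with the 4 libraries alone and 9 without both second knockout libraries. Between genotypes in oil it was 5 with quantile normalization, 2 with equal medians, equal totals, equal sums and library weights, 4 without the length trend or both second knockout libraries, and 6 with the block in the knockout alone. After CCl4 it was 8 with quantile normalization and without both second knockout libraries, and 3 with no filter and at an FDR of 0.01. For the interaction it was 5 with quantile normalization, 1 with equal medians and a pseudocount of 0.1, 0 with no filter and at an FDR of 0.01, 7 without both second knockout libraries and with the block in the knockout alone, and 4 without the length trend. Calls over all genes moved too. For CCl4 in wild type they went from 1592 to 4180 with the 4 libraries alone, 4119 without both second knockout libraries, 3801 with library weights and 3973 with the block in the knockout alone. Under that block they went from 5574 to 7409 for CCl4 in knockout, from 3368 to 6067 in oil, from 5761 to 7705 after CCl4 and from 3355 to 5876 for the interaction. Leaving out both second knockout libraries leaves 1 library in each knockout group, so its spread is that of wild type alone. Leaving out 1 library gave 1 to 2 members called for CCl4 in wild type, 4 to 6 in knockout, 1 to 3 between genotypes in oil, 3 to 5 after CCl4 and 0 to 2 for the interaction.

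The log2 differences that changed sign were these. With quantile normalization, Apoa1 (interaction) was -0.049, Apob (CCl4 in knockout) 0.065, Apoc1 0.16 (CCl4 in wild type) and 0.52 (genotype in oil, adjusted p = 0.00697), Apoc3 -0.025 (CCl4 in knockout), -0.19 (interaction) and 0.042 (genotype in oil), Apoe 0.20 (genotype after CCl4, adjusted p = 0.001) and Apom -0.080 (genotype in oil). Without the length trend, Apoa2 was -0.061 and Apom -0.020 (genotype in oil), Apob 0.14 (CCl4 in knockout) and 0.10 (interaction), and Apoc3 -0.016 (CCl4 in wild type). Without both second knockout libraries, Apoa2 was -0.025, Apoe -0.11 and Apom -0.081 in oil. With equal medians, Apoc1 was 0.016 and Apoe 0.033 (interaction), and Apoc3 0.038 and Apoe 0.050 (genotype after CCl4). Rescaled to equal totals or to equal sums, Apoc1 in oil was 0.10 and 0.12. Leaving out 1 library gave these ranges: Apoa1 -0.18 to 0.094 and Apob -0.93 to 0.83 (CCl4 in knockout), Apob -0.017 to 0.26, Apoc2 -0.003 to 0.24 and Apoc3 -0.053 to 0.18 (CCl4 in wild type), Apob -1.05 to 0.71, Apoc1 -0.21 to 0.091 and Apoe -0.19 to 0.10 (interaction), Apoc1 -0.22 to 0.057, Apoc3 -0.16 to 0.13 and Apoe -0.13 to 0.13 (genotype after CCl4), and Apoa2 -0.025 to 0.22, Apoc1 -0.18 to 0.13, Apoe -0.11 to 0.19 and Apom -0.081 to 0.15 (genotype in oil). Rescaling to equal totals moved the median of all genes from 0.05 to 0.16 in oil between genotypes and from -0.09 to -0.24 in the interaction. Calls over all genes, higher and lower, went from 2256 and 1112 to 3414 and 959 in oil between genotypes and from 1437 and 1918 to 1176 and 2720 in the interaction, and with quantile normalization to 1748 and 1351 in oil, 1811 and 1602 in the interaction, and from 1026 and 566 to 842 and 785 for CCl4 in wild type.

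The replicate numbers were not taken as pairs. The correlation of same-numbered deviations across genes was -0.037 in wild type and 0.803 in knockout, and 0.219 in oil and -0.242 after CCl4 between genotypes. The replicate block gave 2 members called for CCl4 in wild type, 6 in knockout, 2 between genotypes in oil, 6 after CCl4 and 2 for the interaction. Calls over all 10082 tested genes under it were 1617, 5727, 3568, 6094 and 3517 in that order. The added calls were Apoa1 (CCl4 in wild type, adjusted p = 0.0424), Apoc3 (CCl4 in knockout, 0.0414), Apob (oil, 0.0348) and Apom (genotype after CCl4, 0.0443). Blocked in the knockout alone, Apoc1 (adjusted p = 0.000285), Apoe (0.000871) and Apoc3 (0.00129) were called for CCl4 in knockout. With the wild-type CCl4 numbers crossed, 6 were called between genotypes after CCl4, beside 6498 of 10082 tested genes.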
